A study of Homo sapiens with 12 samples.

Results

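High-fat medium (HFM) was compared between 24 and 12 hours of incubation in Sk-hep1 cells, over all genes measured. The comparison takes 6 of the 12 arrays of the study, 3 labelled HFM for 12 hours and 3 labelled HFM for 24 hours, chosen by their labels alone. It addresses how the response to the medium progressed. Sk-hep1 is an established human line from liver cancer ascites, which the labels describe as an adenocarcinoma of endothelial cell type. Total RNA was labelled as biotinylated cRNA and hybridised to Affymetrix human arrays. HFM was based on DMEM/F12. The other 6 arrays are from cells in growth medium (GM), based on DMEM, for 12 hours (3 arrays) or 24 hours (3 arrays). All cells came from the same line, grown beforehand in DMEM with fetal bovine serum, and no group carries a genetic change. The fat added to HFM and the time from plating to the start of incubation were not stated in the labels used here. Fat and basal medium cannot be told apart, since both differ between HFM and GM. Whether replicates were separate cultures is not said in the labels. If they were not, the p-values describe technical spread between these arrays only.

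As background, cells that take up more fatty acid than they can oxidise store it as triglyceride in lipid droplets coated by perilipins. Saturated fatty acids that stay in membranes can disturb the endoplasmic reticulum, where unfolded protein response sensors raise chaperones through ATF6 and XBP1 and the transcription factor CHOP, encoded by DDIT3, through PERK and ATF4. Sterol supply is read separately, by the SCAP and INSIG proteins that hold the SREBP factors in the endoplasmic reticulum. Cells that leave the cycle lower the E2F targets needed for DNA synthesis.

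Values are log2 levels made by the authors with GCRMA. Changes are differences of these levels, 24 minus 12 hours, given with standard errors and n = 3 arrays per group. All adjusted p-values are from limma with Benjamini-Hochberg adjustment over the 13130 genes tested, each represented by 1 probe set. A gene rose or fell where its adjusted p was under 0.05. The number of arrays limits the precision.

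The arrays of the 2 times were well separated, but HFM 12-hour replicate 1 stood apart. Its correlation across genes with the other HFM 12-hour arrays was 0.992 and 0.991, against 0.999 between those, and the HFM 24-hour arrays correlated at 0.998 with each other. Its spiked hybridisation controls, which do not come from the cells, had a mean log2 level of 8.87, against 8.60 and 8.66 on the other HFM 12-hour arrays and 8.53 to 8.56 at 24 hours. GM 12-hour arrays lay between 8.90 and 8.96 on this measure and GM 24-hour arrays between 8.41 and 8.63. The level of these controls and the time therefore cannot be told apart in GM. Comparisons of the time effect between HFM and GM use the GM arrays too and carry the same limit. Results in HFM are given without HFM 12-hour replicate 1 where that changes them.

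Controls that do come from the cells moved with time in HFM. The 3' minus 5' probe set difference of ACTB, a cytoskeletal gene used to judge RNA integrity, was 0.84 ± 0.13 (SD, n = 3) at 12 hours and 1.58 ± 0.06 at 24 hours on the log2 scale. GAPDH, an enzyme of glycolysis that serves as a further integrity control, had differences of 0.15 at 12 and 0.27 at 24 hours. An exact permutation test (two-sided) gave p = 0.1 for each, and no smaller p is possible with 3 arrays per time. In GM the ACTB difference was 0.89 at 12 and 1.07 at 24 hours. The 18S ribosomal RNA probe sets changed by -1.23 (5'), -1.85 (middle) and -0.64 (3'), while the 28S probe sets changed by 1.50 (5') and 1.18 (middle), each again at p = 0.1 by the exact permutation test. The part of these shifts in the gene results below was not tested.

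**Figure D1:**
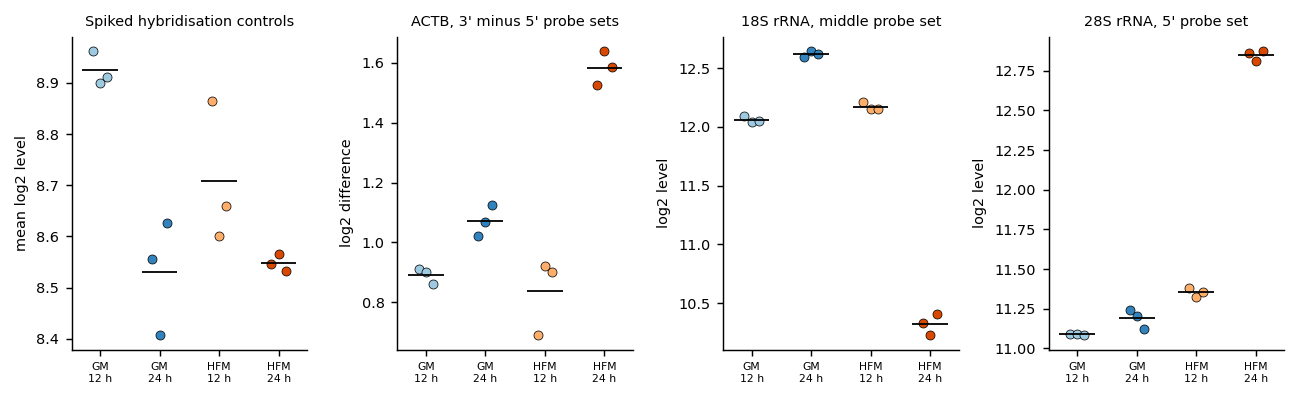
Control measures on each of the 12 arrays (points) with group means (lines), on log2 scales, for GM and HFM at 12 and 24 hours. From left to right: the mean of the spiked hybridisation controls, high on the GM 12-hour arrays and on 1 HFM 12-hour array, the ACTB 3' minus 5' difference, highest in HFM at 24 hours with a mean of 1.58, the middle 18S probe set, lowest in HFM at 24 hours, and the 5' 28S probe set, highest there.

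Between 12 and 24 hours in HFM, 8290 of 13130 genes were called (63.1%), of which 2637 rose (20.1% of the genes tested) and 5653 fell (43.1%). At least a 2-fold change was reached by 1004 called genes (7.65%), 308 upward (2.35%) and 696 downward (5.30%). The arrays of the 2 times did not overlap in 65.9% of genes. The median change of all genes was -0.12. The split between rises and falls depended on the scaling of the arrays. After centring each array on its median gene, 5133 rose and 3790 fell, and after a repeated quantile normalisation 4047 rose and 4395 fell. Counts below are to be read against these shares and as changes relative to the other genes. List counts are over members that passed the filter on low values, which were 802 of 887 on the array and of 977 listed over all lists. Without HFM 12-hour replicate 1, 64.4% of genes were called, of which 2861 rose (21.8%) and 5597 fell (42.6%), and 2459 and 5336 of these were called the same way with all 6 arrays.

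The largest rises were mostly of non-coding transcripts and a histone. SNORA72, annotated as a small nucleolar RNA, had log2 levels of 5.22, 5.42 and 5.27 at 12 hours and 8.98, 9.11 and 9.07 at 24 hours, a rise of 3.75 ± 0.15 (adjusted p = 3.4e-09) or 13.5-fold. The arrays of each time lay close together and far from the other time. LINC-PINT, a long non-coding RNA induced by p53, rose by 3.61 ± 0.06 (adjusted p = 6.2e-12), although the mean of its probe sets rose by 0.99. The other large rises were RPS16P5 at 3.74, LINC00472 at 3.56, KIAA0754 at 3.27, the histone gene H2BC21 at 3.23, TAF1D at 3.12, EID3 at 3.04, LINC00115 at 3.00, TXNIP at 2.72, LINC00973 at 2.62 and DDIT3 at 2.58. RPS16P5 is annotated as a pseudogene of RPS16, and RPS16 itself stood at 0.06, without passing the test. KIAA0754 rose by 1.63 as the mean of its probe sets.

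All of the 12 largest falls but 1, that of the antisense transcript ZNF407-AS1, were of protein-coding genes. LCMT2, a tRNA-modifying enzyme, had levels of 7.44, 7.31 and 7.28 at 12 hours and 4.60, 3.88 and 3.78 at 24 hours, so that its later levels lay near log2 4, the lower limit for testing. It fell by 3.25 ± 0.16 (adjusted p = 1.4e-08), and by 1.55 as the mean of its probe sets. FADD, the adaptor that couples death receptors to caspase-8, stood at 9.01, 8.85 and 8.82 and then at 6.06, 6.08 and 6.04, a fall of 2.83 ± 0.06 (adjusted p = 2.8e-11). EIF5, which triggers GTP hydrolysis on the scanning ribosome, fell by 2.54 ± 0.07 (adjusted p = 3.1e-10), but by 0.58 when probe set types prone to cross-hybridisation were left out. The remaining large falls were NCOA5 at -3.15, HSD17B1 at -2.90, HPS6 at -2.90, STARD13 at -2.81, RASSF10 at -2.70, CYREN at -2.68, HYLS1 at -2.62, HMX2 at -2.46 and ZNF407-AS1 at -2.39. As means of probe sets, HPS6 changed by -1.44, HSD17B1 by -1.73, NCOA5 by -1.80, CYREN by -1.37 and STARD13 by -0.73, and a further STARD13 probe set rose. Of 507 genes with a called 2-fold change and other tested probe sets, 395 had another probe set called the same way and 63 had one called the opposite way. Among called genes of any size of change, 4501 had other tested probe sets, and 848 of them had one called the opposite way.

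Time also passed in GM, where no array is shared with the HFM comparison. In GM 9182 genes were called (69.9%), 3860 upward (29.4%) and 5322 downward (40.5%), and 561 (4.27%) by at least 2-fold, 506 upward (3.85%) and 55 downward (0.419%). Genes that rose in both media numbered 1635, which is 62.0% of the HFM rises and 42.4% of the GM rises. Genes that fell in both numbered 3235, or 57.2% of the HFM falls and 60.8% of the GM falls. Another 1117 genes fell in HFM and rose in GM, and 384 rose in HFM and fell in GM. The difference of the time effect, tested as an interaction, was called for 6931 genes (52.8%), with the HFM change higher for 2551 (19.4%) and lower for 4380 (33.4%). It reached 2-fold for 1045 genes (7.96%), 164 higher (1.25%) and 881 lower (6.71%). After centring these were 5068 higher and 3134 lower, and after quantile normalisation 3759 and 3618. Of the 308 genes with a 2-fold rise in HFM, 204 had a difference called in the same direction, and of the 696 with a 2-fold fall, 635 did. CLK1, a kinase of splicing factors, rose alike in both, by 1.69 in HFM and 1.74 in GM (difference -0.05 ± 0.12, adjusted p = 0.76).

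**Figure D2:**
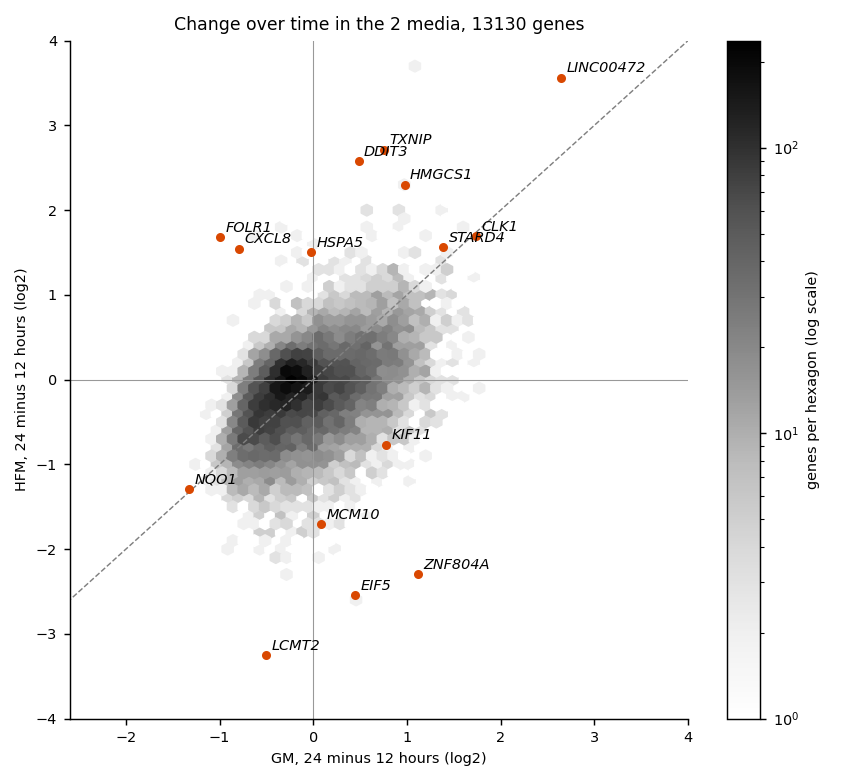
Change from 12 to 24 hours of each of 13130 genes in GM (horizontal axis) and HFM (vertical axis), in log2 units, with the number of genes per hexagon shaded on a log scale and the line of equal change dashed. Named points include CLK1 and STARD4 near the line, and DDIT3, HSPA5, CXCL8, EIF5 and ZNF804A away from it.

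Genes of endoplasmic reticulum folding rose between 12 and 24 hours. Of 18 chaperone and oxidative folding genes, all of them tested, 14 went up, 1 went down and 3 were not called, with a median change of 0.36 against -0.12 for all genes. Without HFM 12-hour replicate 1, 15 rose and 1 fell. In GM 9 of them rose and 6 fell, with a median of 0.05, and the difference was called higher in HFM for 13 and lower for 1. HSPA5, the main chaperone of the lumen, also called BiP, had levels of 11.86, 12.06 and 12.07 at 12 hours and 13.45, 13.53 and 13.53 at 24 hours. The 2 times did not overlap, and the rise was 1.51 ± 0.06 (adjusted p = 2.6e-09), or 2.84-fold. As the mean of its probe sets it was 0.83. In GM HSPA5 stood at means of 12.00 and 11.98, and the difference of its time effect was 1.53 ± 0.08 (adjusted p = 7.6e-08).

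DNAJB9, a co-chaperone of HSPA5 that also restrains the sensor IRE1, rose most within the list. Its levels were 8.60, 8.64 and 8.67 at 12 hours and 11.05, 10.99 and 11.10 at 24 hours, a rise of 2.41 ± 0.05 (adjusted p = 2.8e-11). DNAJC3, another co-chaperone, rose by 1.11 ± 0.05 (adjusted p = 1.3e-08), the oxidases ERO1B and ERO1A by 1.00 and 0.92, and HSP90B1, the lumenal HSP90, by 0.75. ERO1B and HSP90B1 rose in GM too, by 0.83 and 0.64, and for neither was the difference called. The disulfide isomerases PDIA3, PDIA4 and PDIA6 rose by 0.56, 0.55 and 0.41. CRELD2, also a folding factor, fell by 0.32 ± 0.10 (adjusted p = 0.014), or 0.19 without HFM 12-hour replicate 1, while MANF, P4HB and SDF2L1 stood at 0.05, 0.06 and 0.11 without passing the test.

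The promoters of these genes are shown because several hold the element through which ATF6 acts. The letters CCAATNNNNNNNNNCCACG, an endoplasmic reticulum stress element, were searched on both strands of the 300 bases around each gene's start (250 before, 50 after) for the 7553 tested genes with 1 promoter entry in RefSeq (GRCh38.p14). A match was found for 11 genes (0.146%), and for 5 of the 13 chaperone genes with an entry (38.5%). Stretches of these 5 promoters follow, 5′ to 3′ on the gene's strand, with the fixed letters of the element in capitals. The HSPA5 stretch lies at chr9:125241351-125241449 on the minus strand, HSP90B1 at chr12:103930176-103930274 on the plus strand, CALR at chr19:12938359-12938442 on the plus strand, CRELD2 at chr22:49918514-49918612 on the plus strand and ERO1B at chr1:236282143-236282208 on the minus strand. The CALR, CRELD2 and ERO1B matches read on the opposite strand, so their capitals spell the reverse complement. HSP90B1 holds 2 matches, of which the one farther from the start is shown.
HSPA5: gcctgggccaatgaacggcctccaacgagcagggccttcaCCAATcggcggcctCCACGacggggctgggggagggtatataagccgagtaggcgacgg
HSP90B1: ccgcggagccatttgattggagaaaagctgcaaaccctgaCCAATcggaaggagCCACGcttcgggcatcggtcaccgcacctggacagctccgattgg
CALR: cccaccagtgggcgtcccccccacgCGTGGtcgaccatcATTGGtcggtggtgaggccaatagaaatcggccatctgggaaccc
CRELD2: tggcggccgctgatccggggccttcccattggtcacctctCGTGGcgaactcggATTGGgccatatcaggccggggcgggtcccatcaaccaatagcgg
ERO1B: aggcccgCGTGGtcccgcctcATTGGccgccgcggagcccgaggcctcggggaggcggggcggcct

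The genes with this element did not move as one. Among the 11, 5 rose and 2 fell, while 4 missed the threshold. HSPA5, ERO1B, HSP90B1, EIF2A and CALR rose, by 1.51, 1.00, 0.75, 0.37 and 0.24. Their changes in GM were -0.02, 0.83, 0.64, 0.82 and -0.23. The difference was called higher in HFM for HSPA5 and CALR and lower for EIF2A. It was not called for ERO1B (adjusted p = 0.21) or HSP90B1 (adjusted p = 0.17). CRELD2 and SERP1 fell, by 0.32 and 0.20, while 2 of the 3 other SERP1 probe sets were called upward, and FICD, ALG12, TMEM120A and TRIM5 stood at -0.17, -0.15, -0.17 and 0.64 without passing. DNAJB9 and DNAJC3, whose promoters were searched too, held no match in this window. A match is a description of the sequence, not of binding.

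The sensors and transcription factors of the unfolded protein response rose with the chaperones. Of 12 genes 8 rose, 2 fell and 2 did not pass, with a median of 0.39, and without HFM 12-hour replicate 1, 7 rose and 2 fell. CREBRF, a nuclear protein that lowers CREB3, had levels of 6.63, 6.65 and 6.65 and then 8.81, 8.69 and 8.69, a rise of 2.09 ± 0.08 (adjusted p = 2.5e-09), and rose in GM by 1.47. ERN1, which encodes the sensor IRE1, rose by 1.22 ± 0.10 (adjusted p = 9.3e-07), and by 0.55 as the mean of its probe sets. ATF6B rose by 0.76, the PERK gene EIF2AK3 by 0.62 and ATF6 by 0.42. For ATF6B and EIF2AK3, with GM changes of 0.06 and 0.33, the difference was called higher in HFM. ATF6 rose more in GM, by 0.65, and its difference was called lower in HFM (-0.23 ± 0.08, adjusted p = 0.032). XBP1 rose by 0.23 ± 0.09 (adjusted p = 0.035), a call that was lost without HFM 12-hour replicate 1 (adjusted p = 0.055) and without 4 other arrays in turn. WFS1 and CREB3 fell by 0.60 and 0.59, and by 0.53 and 0.83 in GM, and for neither was the difference called.

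The ATF4 and CHOP arm split in 2. Of 16 tested genes 9 rose, 6 fell and 1 did not pass, with a median of 0.24, and after centring 10 rose and 3 fell. In GM 3 rose and 9 fell. DDIT3, which encodes the pro-apoptotic factor CHOP, had levels of 9.12, 8.85 and 8.78 at 12 hours and 11.51, 11.55 and 11.42 at 24 hours. Its rise was 2.58 ± 0.09 (adjusted p = 1.2e-09), or 5.97-fold, against 0.48 in GM, a difference of 2.09 ± 0.13 (adjusted p = 1.4e-07). PPP1R15A, which restarts translation by dephosphorylating eIF2α, rose by 1.99 ± 0.07 (adjusted p = 1.4e-09) and changed by -0.51 in GM. STC2, a secreted glycoprotein, rose by 1.38, but stood at 0.10 without passing once probe set types prone to cross-hybridisation were left out. The factors ATF3 and CEBPB rose by 1.30 and 0.88.

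Other targets of this arm went down. CHAC1, which degrades glutathione, fell by 0.78, DDIT4, an inhibitor of mTORC1, by 0.62, and TRIB3, a pseudokinase that binds ATF4, by 0.46. These falls were also seen in GM, where CHAC1, DDIT4 and TRIB3 changed by -0.62, -0.63 and -0.78. The difference was not called for CHAC1 or DDIT4, and TRIB3 fell less in HFM (difference 0.32 ± 0.11, adjusted p = 0.029). ATF4 itself changed by -0.20 ± 0.06 (adjusted p = 0.012), by -0.13 without HFM 12-hour replicate 1, and stood at 0.02 after centring. Amino acid synthesis and transport genes, many of them ATF4 targets, were 3 up and 5 down of 17, but 5 up and 2 down after centring. SLC7A11, the cystine transporter, and ASNS, asparagine synthetase, rose by 0.84 and 0.65 (ASNS by 0.41 as the mean of its probe sets), while the transporter SLC1A4 fell by 0.77. SLC7A11, ASNS and SLC1A4 changed by 1.06, 0.03 and -0.75 in GM, and the difference was called for ASNS but not for SLC7A11 or SLC1A4. Cytosolic tRNA synthetases were 3 up and 6 down of 17, but 9 up and 4 down after centring and 7 up and 5 down without HFM 12-hour replicate 1, with FARSA, VARS1 and HARS1 at -0.76, -0.64 and -0.52. VARS1 stood at -0.42 both as the mean of its probe sets and after centring, and HARS1 at -0.30 after centring. FARSA, VARS1 and HARS1 changed by -0.93, -0.86 and -0.75 in GM, and the difference was called for none of them.

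Genes of endoplasmic reticulum associated degradation were mixed, with 5 up, 4 down and 7 not passing of 16, and 9 up and 4 down after centring. HERPUD1, a membrane scaffold of the degradation complex, had levels from 10.89 to 11 at 12 hours and from 12.87 to 12.90 at 24 hours. It rose by 1.95 ± 0.05 (adjusted p = 9.8e-11), against -0.06 in GM. SEL1L, its partner in the complex, rose by 0.82, while FAF2, a recruiter of the VCP extractor, fell by 1.50 and the conjugating enzyme UBE2J2 by 0.84. As means of probe sets these 2 falls were 0.93 and 0.54. The HERPUD1 promoter holds TTGCATCA, a form of the composite site that ATF4 and C/EBP factors share, which was found on either strand in 28 of the 7553 promoters (0.371%). The stretch lies at chr16:56931926-56932013 on the plus strand, with the site in capitals.
HERPUD1: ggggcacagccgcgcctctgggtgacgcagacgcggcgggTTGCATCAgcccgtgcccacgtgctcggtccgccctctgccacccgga

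Of the 28 genes with this site, 8 rose, 9 fell and 11 did not pass, and CHAC1, which fell, is among them. Of 7 genes of the ATF4 and CHOP arm with an entry, CHAC1 and PPP1R15B held the site.

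**Figure D3:**
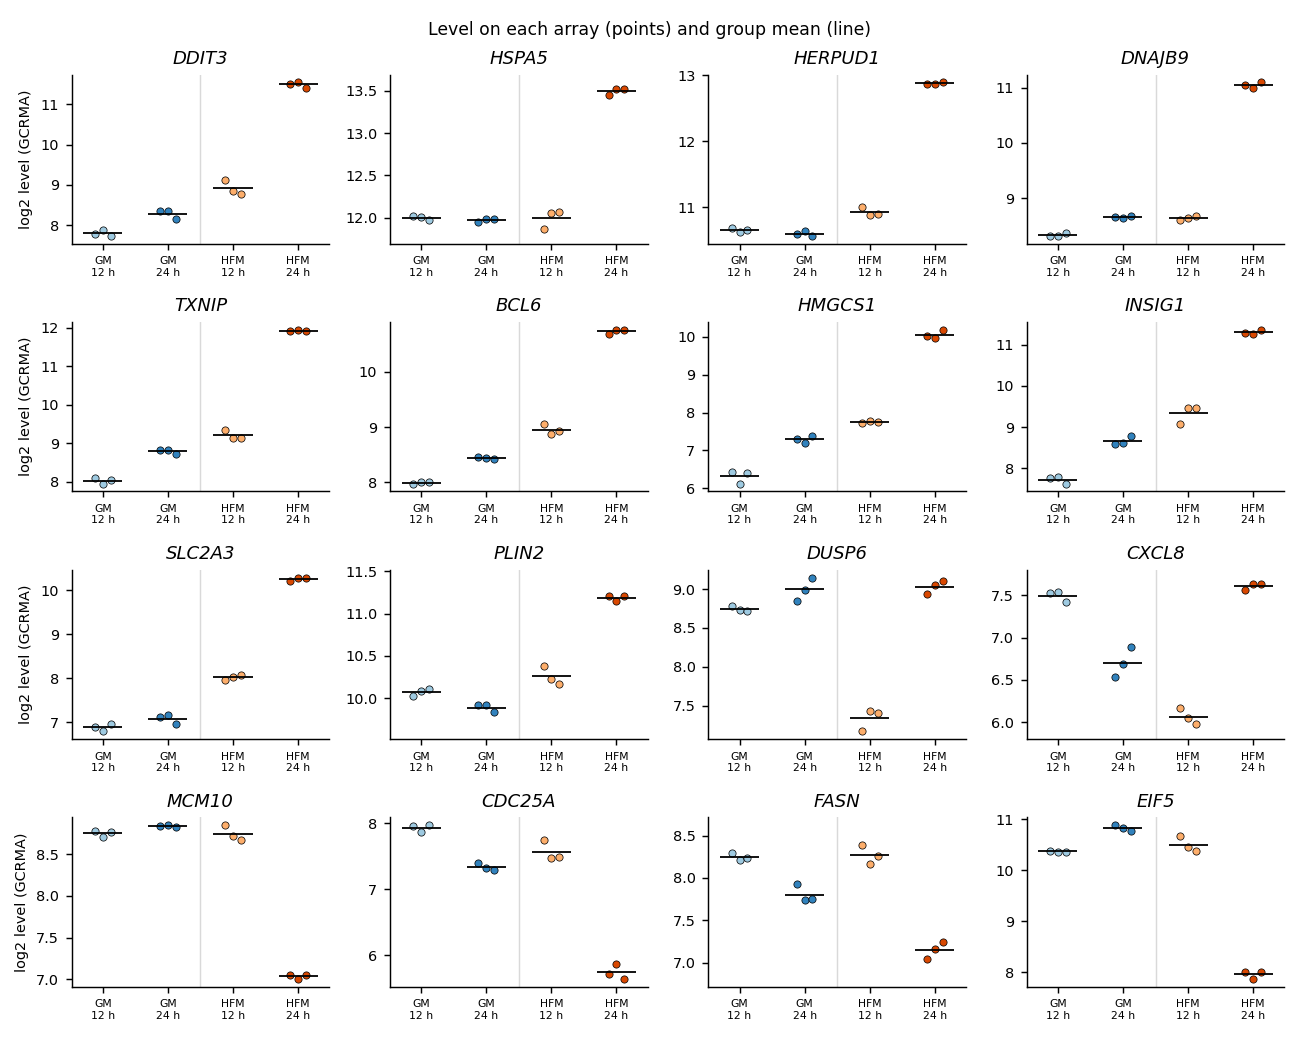
Log2 level of 16 named genes on each of the 12 arrays (points) with group means (lines), for GM and HFM at 12 and 24 hours, each panel with its own axis. In every panel the HFM arrays of 12 and 24 hours do not overlap; DDIT3, HSPA5, HERPUD1 and SLC2A3 are highest in HFM at 24 hours, and MCM10, CDC25A, FASN and EIF5 lowest.

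Sterol genes did not move together. Of 19 tested genes of cholesterol synthesis and uptake 8 rose, 7 fell and 4 did not pass, with a median near 0, and after centring 10 rose and 4 fell. HMGCS1, which makes HMG-CoA, had levels of 7.73, 7.76 and 7.76 at 12 hours and 10.02, 9.96 and 10.18 at 24 hours, a rise of 2.30 ± 0.09 (adjusted p = 2.1e-09) that was 3.50 as the mean of its probe sets. Its rise in GM was 0.97, and the difference was 1.33 ± 0.12 (adjusted p = 3.8e-06). INSIG1, which retains SCAP in the endoplasmic reticulum, rose by 1.97 ± 0.10 (adjusted p = 1.5e-08), against 0.94 in GM.

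STARD4, a cytosolic sterol carrier, rose by 1.56 in HFM and 1.39 in GM, a difference of 0.18 ± 0.11 that was not called (adjusted p = 0.20). SQLE, MSMO1 and SC5D, which act after squalene formation, rose by 0.92, 0.91 and 0.90. In contrast LSS, the cyclase that makes lanosterol, and PMVK, the phosphomevalonate kinase, each fell by 0.92, and EBP and NSDHL fell by 0.71 and 0.63. The sterol regulatory letters TCACNCCAC were found on either strand in 80 of 7553 promoters (1.06%) and in 1 of 14 in this list, SREBF2.

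Fatty acid synthesis genes moved in both directions. Of 14 tested genes 3 rose, 4 fell and 7 did not pass, and after centring 6 rose and 2 fell. FASN, the fatty acid synthase, had levels of 8.39, 8.16 and 8.26 at 12 hours and 7.04, 7.16 and 7.25 at 24 hours. It fell by 1.12 ± 0.08 (adjusted p = 1.5e-07), by 0.62 as the mean of its probe sets, and by 0.44 in GM. ACACA, which makes malonyl-CoA, fell by 0.38 and SREBF1 by 0.33, though another ACACA probe set was called upward and SREBF1 was not called without HFM 12-hour replicate 1 (adjusted p = 0.11). SCD, the desaturase that makes oleate, rose by 0.54 ± 0.04 (adjusted p = 7.3e-07), and by 0.48 in GM, and the elongase ELOVL6 rose by 0.38, or 0.17 as the mean of its probe sets.

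Storage and use of fatty acids changed in single genes. Of 23 genes of lipid droplets and triglyceride turnover 7 rose and 8 fell, and 10 rose and 6 fell after centring. PLIN2, the droplet coat protein that follows lipid load, stood at 10.38, 10.22 and 10.17 and then at 11.21, 11.15 and 11.20. It rose by 0.93 ± 0.06 (adjusted p = 1.1e-07), or 0.44 as the mean of its probe sets, and changed by -0.18 in GM, a difference of 1.11 ± 0.09 (adjusted p = 8.3e-07). HILPDA, an inhibitor of triglyceride lipase, fell by 1.30, DGAT2, which makes triglyceride, by 0.73, and the lipases LIPE and MGLL each by 0.65.

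Of 27 genes of fatty acid uptake and oxidation 7 rose and 12 fell, against 12 up and 9 down after centring. PDK4, which diverts pyruvate from oxidation, had levels of 6.17, 6.15 and 6.22 and then 7.67, 7.68 and 7.82, a rise of 1.54 ± 0.06 (adjusted p = 2.5e-09), and of 0.65 as the mean of its probe sets. ACSL4, which activates polyunsaturated fatty acids, and ANGPTL4, an inhibitor of lipoprotein lipase, rose by 1.14 and 0.97, ACSL4 by 0.72 without HFM 12-hour replicate 1. The carnitine palmitoyltransferases CPT1A and CPT2 fell by 0.40 (0.18 after centring) and 1.32, the receptor PPARA by 1.21, the peroxisomal oxidase ACOX2 by 1.52 and the fatty acid carrier FABP4 by 1.38. ACOX2 levels were spread at 24 hours, at 4.53, 4.37 and 3.48.

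FOXO targets and insulin signalling genes rose, 16 of 22, while 2 fell and 4 did not pass, with a median of 0.45. In GM 10 rose and 2 fell, with a median of 0.16. TXNIP, an arrestin that lowers glucose uptake, had levels of 9.35, 9.14 and 9.13 and then 11.91, 11.94 and 11.91, a rise of 2.72 ± 0.07 (adjusted p = 9.8e-11), or 6.57-fold, and rose by 0.76 in GM. BCL6, a transcriptional repressor, rose by 1.79 ± 0.05 (adjusted p = 3.1e-10), against 0.44 in GM. ARRDC4, a relative of TXNIP, rose by 1.14 in HFM and 0.95 in GM, a difference that was not called (adjusted p = 0.11). GADD45A, CCNG2 and the CDK inhibitor gene CDKN1B rose by 1.11, 0.97 and 0.86, and TRIB2 fell by 0.82.

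Among 34 genes of glucose transport, glycolysis and the hypoxia response 15 rose, 9 fell and 10 did not pass, with a median of 0.03, and after centring 21 rose and 3 fell. In GM 8 rose and 19 fell, and the difference was called higher in HFM for 19 and lower for 4. SLC2A3, the transporter GLUT3, had levels of 7.96, 8.03 and 8.08 and then 10.21, 10.29 and 10.28, a rise of 2.23 ± 0.06 (adjusted p = 2.6e-10), against 0.19 in GM. SLC2A1, the transporter GLUT1, fell by 0.55 in HFM and by 0.58 in GM, and the difference was not called (adjusted p = 0.81). PFKFB3, which raises glycolytic flux, rose by 1.44 and STC1 by 1.29, both with falls in GM of 0.30 and 0.27. The collagen prolyl hydroxylase P4HA1 and the MYC antagonist MXI1 rose by 1.15 and 0.96. Of the glycolytic enzymes, ENO1 and PKM fell by 0.28 and 0.24, and by 0.27 and 0.82 in GM. ENO1 had no called difference, and PKM fell less in HFM (difference 0.58 ± 0.09, adjusted p = 2.2e-04). Of the 3 other ENO1 probe sets 2 were called downward and 1 upward, and the 1 other PKM probe set was called upward.

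All 34 tested genes of DNA replication and S phase fell, where 43.1% of all genes did. Their median was -0.99, the changes ran from -2.03 to -0.18, and 16 fell by at least 2-fold, against 5.30% of all genes. All 34 also fell without HFM 12-hour replicate 1, and 32 fell and 0 rose after centring. In GM 6 rose and 20 fell, with a median of -0.39, and the difference was called lower in HFM for 27 and higher for 0. In RNA from a whole culture, fewer cells in S phase and less of these RNAs per cell cannot be told apart.

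GINS3, a subunit of the replicative helicase, had levels of 7.72, 7.38 and 7.38 at 12 hours and 5.49, 5.48 and 5.43 at 24 hours, a fall of 2.03 ± 0.09 (adjusted p = 4.7e-09). CDC25A, the phosphatase that opens entry into S phase, stood at 7.74, 7.47 and 7.49 and then at 5.72, 5.86 and 5.64, a fall of 1.83 ± 0.08 (adjusted p = 5.2e-09). MCM10, which activates the helicase, fell from 8.85, 8.72 and 8.67 to 7.05, 7.0 and 7.06, by 1.71 ± 0.05 (adjusted p = 4.8e-10). These 3 genes had no overlap between the times. In GM they changed by -0.38, -0.60 and 0.09, and the differences were -1.65, -1.23 and -1.79, all called.

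The other members fell in every class. Of the helicase subunits MCM4, MCM7, MCM5, MCM2, MCM3 and MCM6 fell by 1.06, 0.99, 0.88, 0.87, 0.71 and 0.47. MCM7, MCM5 and MCM2 changed by -0.70, -0.99 and -0.96 in GM, and the difference was called for none of them. MCM4, MCM3 and MCM6 changed by -0.51, -0.41 and -0.15 there, with a difference called lower in HFM for each. The loaders CDC6 and CDT1 fell by 1.38 and 0.99, and the cyclins CCNE2 and CCNE1 by 1.30 and 1.15. CDT1 fell by 1.07 in GM, without a called difference, while CDC6 changed by -0.10 there with a called difference. The histone chaperone subunits CHAF1A and CHAF1B fell by 1.54 and 1.20. The smallest falls were of the ribonucleotide reductase genes RRM1 and RRM2, at -0.18 and -0.24 (-0.36 for RRM2 without HFM 12-hour replicate 1).

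E2F factors bind the promoters of many of these genes. The letters TTTCCCGC or TTTGGCGC were found on either strand in 284 of the 7553 promoters (3.76%), in 14 of the 22 replication genes with 1 entry (63.6%) and in 2 of the 24 mitosis genes (8.33%). The 4 replication genes with the largest falls among those with a match before the start are shown, up to the start itself. The CDC25A stretch lies at chr3:48188418-48188501 on the minus strand, E2F2 at chr1:23531234-23531315 on the minus strand, CDT1 at chr16:88803714-88803788 on the plus strand and GINS2 at chr16:85688955-85689025 on the minus strand. Capitals mark the match, which reads on the opposite strand in CDT1 and GINS2.
CDC25A: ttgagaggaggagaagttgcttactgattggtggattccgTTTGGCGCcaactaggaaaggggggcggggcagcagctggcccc
E2F2: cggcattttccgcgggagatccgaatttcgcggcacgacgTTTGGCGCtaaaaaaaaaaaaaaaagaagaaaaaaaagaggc
CDT1: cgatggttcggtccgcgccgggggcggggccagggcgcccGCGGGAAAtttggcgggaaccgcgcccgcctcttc
GINS2: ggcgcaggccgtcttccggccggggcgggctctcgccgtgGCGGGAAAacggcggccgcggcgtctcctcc

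These 4 genes fell by 1.83, 1.60, 0.99 and 0.94. Their GM changes were -0.60, -0.60, -1.07 and -0.38, and a difference was called for all but CDT1. Of all 284 genes with a match 46 rose, 151 fell and 87 did not pass, against 1525, 3353 and 2675 of all 7553.

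Mitosis and spindle genes went opposite ways in the 2 media. In HFM 21 of 33 fell, 0 rose and 12 did not pass, with a median of -0.34. Without HFM 12-hour replicate 1, 24 fell and 0 rose, and after centring 16 fell and 7 rose. In GM 22 rose and 2 fell, with a median of 0.58, and the difference was called lower in HFM for 29 of 33 and higher for 0. KIF11, the motor that separates spindle poles, had levels of 8.88, 9.14 and 9.13 in HFM at 12 hours and 8.29, 8.25 and 8.30 at 24 hours, a fall of 0.77 ± 0.07 (adjusted p = 2.4e-06), while it rose by 0.77 in GM. The difference was -1.54 ± 0.10 (adjusted p = 3.0e-07). CDC25C, which activates CDK1, fell by 1.06 ± 0.09 and the centromeric histone CENPA by 0.88 ± 0.09. MKI67, the proliferation antigen, fell by 0.68 and CCNB1, cyclin B1, by 0.48 (0.26 after centring). CDK1 and TOP2A stood at 0.19 and 0.21 without passing the test.

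**Figure D4:**
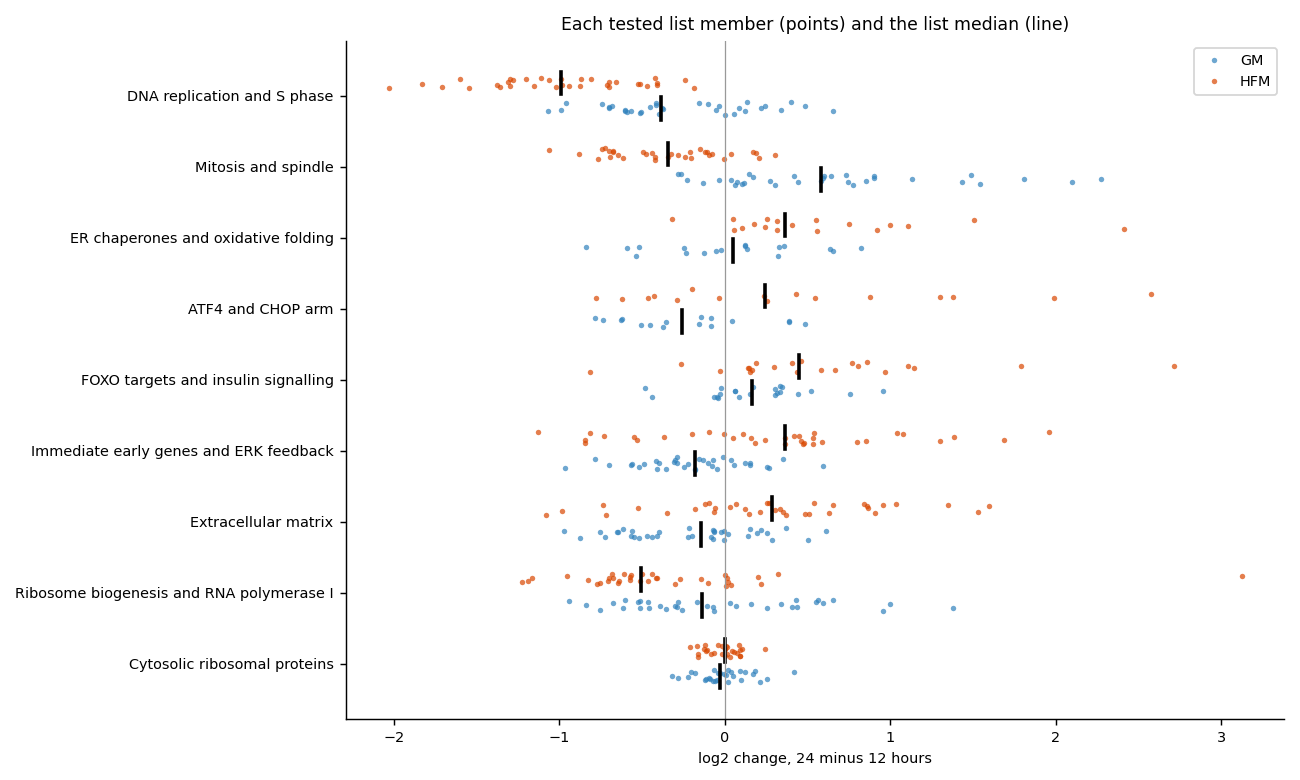
Change from 12 to 24 hours (horizontal axis, log2) of each tested member of 9 gene lists (points) in HFM and GM, with the list medians (black lines). Replication genes all lie below 0 in HFM, and the mitosis medians are -0.34 in HFM and 0.58 in GM.

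Core and linker histone genes rose. Of 34 on the list 23 were on the array, and of the 16 tested 10 rose, 4 fell and 2 were not called, with a median of 0.51, and after centring 12 rose and 2 fell. In GM 3 rose and 9 fell. The difference was called higher in HFM for 12 and lower for 1. H2BC21 had levels of 5.62, 5.16 and 5.22 and then 8.58, 8.55 and 8.56, a rise of 3.23 ± 0.11 (adjusted p = 8.8e-10). H2BC5 and H2AC6 rose by 2.32 (1.37 as the mean of its probe sets) and 2.01, and H2AC8 and H2BC4 by 1.75 and 1.30. The histone variant genes H2AX and H2AZ1 fell by 0.74 and 0.23, H2AZ1 by 0.35 without HFM 12-hour replicate 1. H2AC17 and H1-4 fell too, by 0.52 and 0.21. The H1-4 call was lost without HFM 12-hour replicate 1 (adjusted p = 0.058). Histone genes are near-identical copies of each other, and the probe sets may not tell them apart.

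Of 26 small nucleolar RNA host genes and nuclear long RNAs 14 were named on the array, and of the 12 tested 11 rose, 0 fell and 1 did not pass, with a median of 0.51. In GM 10 rose and 1 fell, with a median of 0.52, and the difference was called for 5 genes, higher in HFM for 2 and lower for 3. EPB41L4A-AS1, a host gene, rose by 1.24 ± 0.06 (adjusted p = 6.2e-09), and by 0.44 as the mean of its probe sets. TUG1 and NORAD rose by 0.99 and 0.98 and GAS5 by 0.81. MALAT1 had levels of 10.05, 11.45 and 11.47 and then 12.80, 12.79 and 12.78, a rise of 1.80 ± 0.30 (adjusted p = 0.00024) that was 1.33 without HFM 12-hour replicate 1. With probe set types prone to cross-hybridisation left out, its chosen probe set stood at -0.05 without passing, while 10 of its 11 other tested probe sets were called upward and 0 downward.

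Splicing kinases and SR factors were 7 up and 11 down of 22, and 11 up and 8 down after centring. The kinases CLK1 and CLK4 rose by 1.69 and 1.01, and CLK2 and CLK3 fell by 0.75 and 0.50. SRSF7, a splicing factor, fell by 1.56 ± 0.07 (adjusted p = 3.9e-09), and by 0.81 as the mean of its probe sets.

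Immediate early and ERK feedback genes rose in HFM. Of 35 genes 21 rose, 8 fell and 6 did not pass, with a median of 0.37, and in GM 6 rose and 16 fell, with a median of -0.18. The difference was called higher in HFM for 20 and lower for 6. DUSP6, a phosphatase of ERK, had levels of 7.17, 7.44 and 7.40 in HFM at 12 hours and 8.94, 9.05 and 9.10 at 24 hours, a rise of 1.69 ± 0.09 (adjusted p = 1.6e-08). Its means in GM were 8.74 and 9.0, so that the HFM arrays were low at 12 hours and near the GM level at 24 hours. SPRY2, which restrains growth factor receptors upstream of ERK, did the same, with 7.14, 7.15 and 7.22 and then 8.55, 8.58 and 8.54, beside means of 8.34 and 8.50 in GM.

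DUSP5, a nuclear ERK phosphatase, rose by 1.96 ± 0.08 (adjusted p = 3.3e-09) and fell by 0.29 in GM. DUSP1 and JUN rose by 1.08 and 1.04, and MYC, the growth regulator, by 0.80 ± 0.06 (adjusted p = 2.4e-07). DUSP4 rose by 0.48, but both of its other probe sets fell. The ERK-dependent factors ETV4 and ETV5 fell by 0.84 and 0.82, FOSL1 by 0.53, and KLF2 by 1.13. FOSL1 and ETV4 changed by -0.57 and -0.41 in GM, and for neither was the difference called. ETV5 and KLF2 changed by -0.35 and -0.78 there, with a difference called lower in HFM for both.

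NF-kappaB and inflammatory genes divided evenly, with 9 up, 9 down and 5 not passing of 23, and 12 up and 6 down after centring. CXCL8, a neutrophil chemokine, had levels of 6.16, 6.05 and 5.97 at 12 hours and 7.56, 7.63 and 7.63 at 24 hours, a rise of 1.54 ± 0.08 (adjusted p = 2.3e-08). In GM its mean went from 7.50 to 6.70, and the difference was 2.34 ± 0.12 (adjusted p = 4.2e-08). PTX3, a pattern recognition molecule, rose by 1.40, NFKBIZ, a nuclear cofactor, by 1.13 and IL1B by 0.88. IL6 went the other way, from 7.29, 6.97 and 6.82 to 6.33, 6.09 and 5.98, a fall of 0.90 ± 0.11 (adjusted p = 2.7e-05), and fell by 0.65 in GM. NFKB1 fell by 0.92.

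Extracellular matrix genes rose in HFM, 20 of 36 with 7 falls and a median of 0.28, and in GM 7 rose and 17 fell. The difference was called higher in HFM for 23 and lower for 3. PLAT, the tissue plasminogen activator, had levels of 9.93, 9.94 and 9.91 and then 11.50, 11.45 and 11.43, a rise of 1.53 ± 0.04 (adjusted p = 3.1e-10). POSTN, the matricellular protein periostin, rose by 1.60 ± 0.13 and LAMB1, a laminin chain, by 1.35 ± 0.10. The collagen cross-linking enzymes LOX and PLOD2 rose by 1.03 and 0.86. COL8A1, COL5A2 and FN1 fell by 1.08, 0.99 and 0.53, and COL1A1 stood at 0.07 (adjusted p = 0.71), with a sign that turned under several alternatives.

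TGF-beta and Hippo genes were 11 up and 12 down of 35, and 18 up and 7 down after centring. LATS2, a kinase that inhibits YAP, rose by 1.98 ± 0.05 (adjusted p = 1.8e-10), or 0.56 as the mean of its probe sets. ID2, an inhibitor of helix-loop-helix factors, rose by 1.77 and fell by 0.32 in GM. TGFB2, a TGF-beta ligand, had levels of 9.42, 9.82 and 9.88 and then 11.10, 11.20 and 11.18, and rose by 1.45 ± 0.10 (adjusted p = 1.9e-07), with 0.91 as the mean of its probe sets. NF2, an upstream activator of the Hippo kinases, fell by 1.18.

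Of 23 p53 targets and growth arrest genes 13 rose, 5 fell and 5 did not pass, with a median of 0.25. GDF15, a secreted stress cytokine, had levels of 11.21, 11.01 and 10.96 and then 12.78, 12.75 and 12.77, a rise of 1.71 ± 0.06 (adjusted p = 1.6e-09) that was 0.77 as the mean of its probe sets. TP53INP1 and PLK3 rose by 1.33 and 1.22, or 0.49 and 0.46 as means of probe sets. CDKN1A, the CDK inhibitor p21 and the best known p53 target, fell by 0.31 ± 0.06 (adjusted p = 0.0011), a call lost after centring. BAX, which permeabilises mitochondria, fell by 0.90. In the BCL2 family, 3 rose and 7 fell of 14, and 7 rose and 4 fell after centring. BAD fell by 0.72, BCL2L11 rose by 0.58 and MCL1 by 0.75, with 3 of the 4 other MCL1 probe sets and 1 of the 5 other BCL2L11 probe sets called the opposite way.

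Ribosome biogenesis and RNA polymerase I genes fell, 26 of 36 with 2 rises and a median of -0.51. Without HFM 12-hour replicate 1, 27 fell and 2 rose, and after centring 23 fell and 10 rose. The difference from GM was called lower for 20 and higher for 2. BYSL and NOP16, assembly factors of the small and large subunits, fell by 1.23 ± 0.08 (adjusted p = 1.0e-07) and 1.19 ± 0.08 (adjusted p = 2.1e-07), NOP16 by 0.52 as the mean of its probe sets. TAF1D, a subunit of the polymerase I selectivity factor whose introns host small nucleolar RNAs, went the other way. Its levels were 7.99, 8.09 and 8.12 at 12 hours and 11.13, 11.25 and 11.21 at 24 hours, a rise of 3.12 ± 0.06 (adjusted p = 2.8e-11). TAF1C, another subunit of that factor, was the second gene to rise, by 0.32 ± 0.07 (adjusted p = 0.0013).

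Translation initiation factors were 5 up and 20 down of 35, with a median of -0.28, but 14 up and 15 down after centring, with a median of -0.06. After EIF5, the largest fall was of EIF4EBP2, a repressor of cap binding, by 1.38. The eIF2B subunits EIF2B4, EIF2B2, EIF2B5 and EIF2B3 fell by 0.87, 0.69, 0.61 and 0.60. EIF2B4 and EIF2B5 changed by -0.73 and -0.67 in GM, with no called difference. EIF2B2 and EIF2B3 changed by -0.34 and -0.24 there, with a difference called lower in HFM. Cytosolic ribosomal protein genes hardly moved, with 0 up, 6 down and 23 not passing of 29, changes from -0.21 to 0.24 and a median near 0, although 25 rose and 0 fell after centring. Oxidative phosphorylation genes were 3 up and 26 down of 39, with a median of -0.22, but 12 up and 8 down after centring. Heat shock proteins were 2 up and 10 down of 19, and 7 up and 7 down after centring. DNAJB6, DNAJA1 and BAG3, co-chaperones of cytosolic HSP70, fell by 1.33, 1.14 and 1.05, in contrast to the chaperones of the endoplasmic reticulum.

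The remaining lists had no direction that held under scaling. NRF2 targets were 6 up and 10 down of 25 and autophagy and lysosome genes 13 up and 14 down of 38, against 13 up and 6 down and 19 up and 9 down after centring. Without HFM 12-hour replicate 1, autophagy genes were 17 up and 13 down. NQO1, a quinone reductase, fell by 1.29 in HFM and by 1.33 in GM, and KEAP1, the repressor of NRF2, fell by 1.43. HMOX1, heme oxygenase, had means of 9.29 and 9.28 in HFM (adjusted p = 0.97), while it fell by 0.92 in GM. VMP1, a protein of autophagosome formation, rose by 1.35 in HFM and by 1.81 in GM (difference -0.47 ± 0.12, adjusted p = 0.0081). Interferon-stimulated genes were 7 up and 9 down of 20, and 9 up and 5 down after centring, with IFIT2 at 1.24. Metallothionein and zinc genes were 1 up and 1 down of 10, and 8 up and 1 down after centring, with the zinc sensor MTF1 at -0.97, or -0.61 as the mean of its probe sets.

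**Figure D5:**
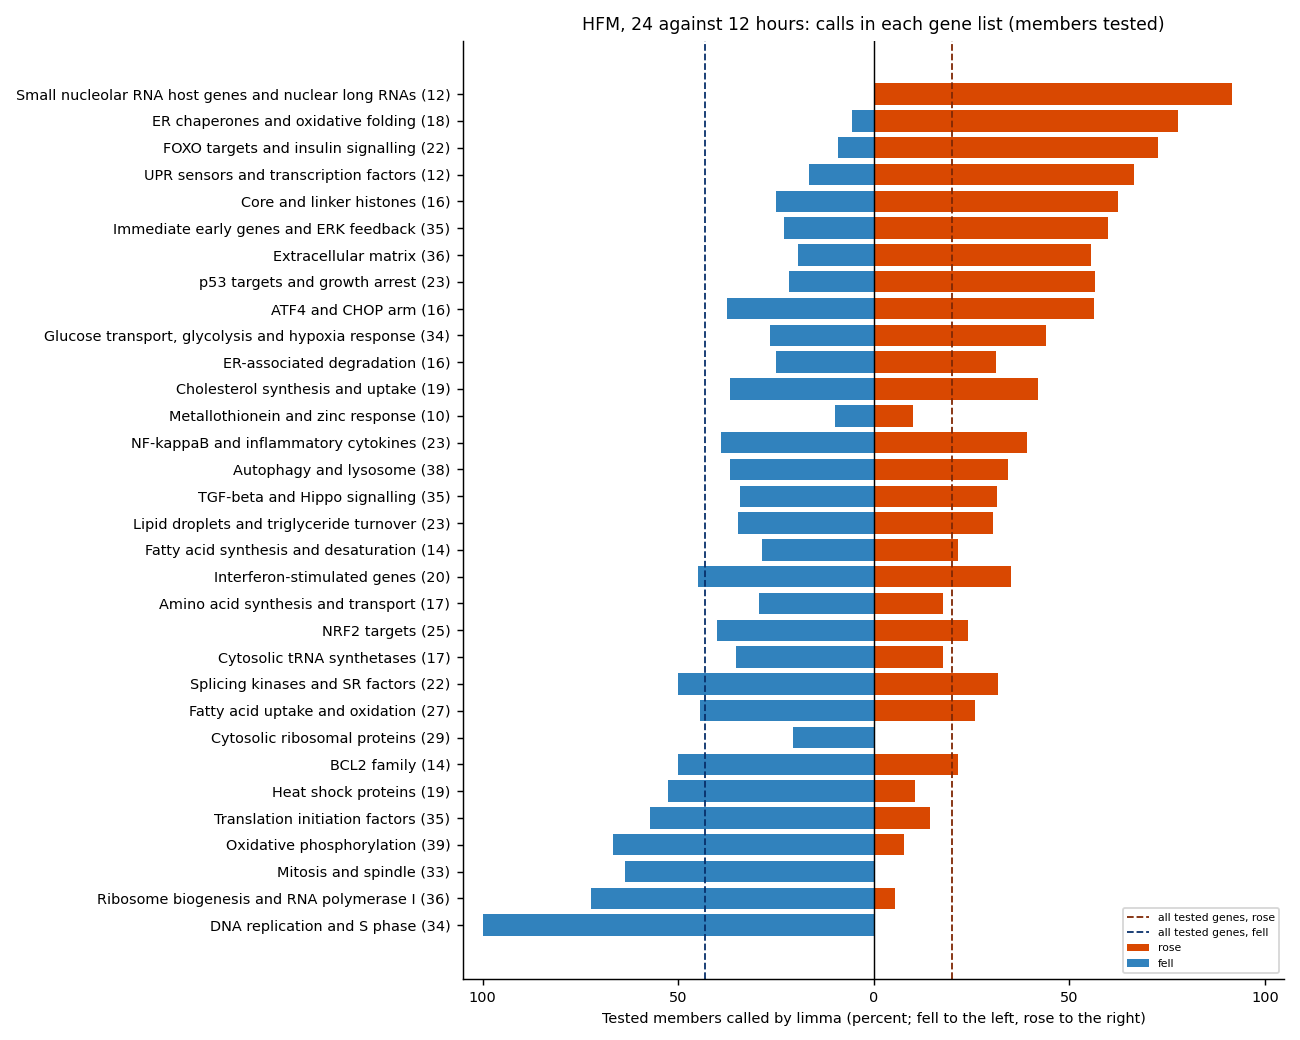
Percent of the tested members of each gene list that rose (right) or fell (left) from 12 to 24 hours in HFM, with the shares of all tested genes as dashed lines (20.1% rose, 43.1% fell); list sizes are in parentheses. Replication genes all fell and 14 of 18 endoplasmic reticulum chaperones rose, while the balance of many lists in the middle, and of ribosomal proteins, heat shock proteins and oxidative phosphorylation, turned or levelled after centring.

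The labelled cell type was checked against marker genes. Of 15 endothelial markers 7 passed the filter on low values, and at 24 hours in HFM 3 had a mean of log2 6 or more and 10 a mean under 4. ENG, ROBO4 and FLI1 stood at 7.16, 6.12 and 6.49. The endothelial genes CDH5, VWF, KDR, TIE1 and ERG lay between 2.26 and 3.12 and did not pass the filter. PECAM1, FLT1, ICAM2 and NOS3 did pass it, with means of 4.01, 5.19, 3.92 and 3.90 in HFM at 24 hours. FLT1, a receptor of VEGF, rose by 0.40, and ENG, ROBO4 and NOS3 fell by 0.30, 0.29 and 0.56, while after centring 3 of the 7 rose and 1 fell. ENG fell by 0.17 without HFM 12-hour replicate 1 and stood at 0.026 as the mean of its probe sets. Keratins were high, with KRT18 at 13.58 and 13.30, KRT8 at 12.42 and 12.07 and KRT19 at 11.10 and 10.74 at 12 and 24 hours, whereas CDH1 and EPCAM lay under 3. Of 8 tested epithelial markers 5 fell and 0 rose, and after centring 2 fell and 0 rose.

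Of hepatocyte, leukocyte and fibroblast markers, 5 of 13, 4 of 11 and 9 of 12 on the array were tested, and 3, 0 and 1 rose and 0, 2 and 3 fell, with 3 fibroblast markers up and 1 down and 1 leukocyte marker up and 2 down after centring. The summed level of each list, on the log2 scale, follows its highest members, so it says little about the others. Among fibroblast markers VIM alone stood at 13.59 and 13.57, while THY1 fell by 0.75. The sums in HFM ran from 7.67 to 7.73 at 12 hours and from 7.80 to 7.83 at 24 hours for hepatocyte markers. For leukocyte markers they ran from 7.61 to 7.77 and then 7.51 to 7.57. For fibroblast markers they ran from 13.72 to 13.82 and then 13.74 to 13.77. Epithelial sums ran from 14.30 to 14.48 and then 14.04 to 14.12. Endothelial sums ran from 8.89 to 9.03 and then 8.74 to 8.81. ALB, which defines hepatocytes, and PTPRC, which defines leukocytes, stayed under 2.4 in all groups. The part of these shifts in the other results was not tested.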

How the data were processed

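The 12 arrays held 54675 probe sets, of which 41097 had 1 gene symbol in the platform annotation, 1801 several and 11777 none, and only the first kind was named. The authors deposited log2 levels; their processing notes, as the submitters gave them, name GCRMA, a method that corrects background, normalises and summarises probe sets, without a version or a filter in the sources used here. From these values each of 19775 genes was given its probe set with the highest mean over the 12 arrays, and the 13130 genes that reached log2 4 on 3 arrays or more went into the test. In R 4.3.3, lmFit and eBayes of limma 3.58.1 fitted 4 group means, and a gene was called at an adjusted p (Benjamini-Hochberg) under 0.05. The 3 contrasts were 24 against 12 hours in HFM, in GM, and their difference.

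The members and the 37 gene lists were chosen with earlier results of these data known. Named genes were the 12 largest rises and falls among called genes of log2 6 or more without overlap, up to 3 called members per list, 5 each way for the difference between media, and a short list whatever its values, of which 1 further gene is not reported here. Other list members were named after their values were seen. The choice to give list counts without HFM 12-hour replicate 1 was made after seeing the data. The pipeline was tested on simulated data. Promoter sequences are RefSeq's (GRCh38.p14). Alternatives were other filters, means over the probe sets of a gene, every probe set, probe set types prone to cross-hybridisation (_x_at and _s_at) left out, centring, a repeated quantile normalisation, robust trended eBayes, only the compared groups, a replicate block, a term for the hybridisation control class and leaving out each array. Plots used Python 3.11.15 with matplotlib 3.10.9.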

Additional observations from a re-analysis of the deposited data

Results flagged for a closer look

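The change from 12 to 24 hours differed between HFM and GM, by the interaction test of limma, for 6931 genes. Among genes of log2 6 or more in their highest group, the HFM change exceeded the GM change most for SNORA72 (by 2.68), FOLR1, a folate receptor (2.68), RPS16P5 (2.67), LINC-PINT (2.60) and H2BC21 (2.55). FOLR1 rose by 1.68 in HFM and fell by 1.00 in GM, and rose by 0.80 in HFM as the mean of its probe sets. The HFM change lay furthest below the GM change for ZNF804A (-3.42), TRMT10C (-3.18), HYLS1 (-3.05), EIF5 (-2.99) and FILIP1L (-2.94). TRMT10C, a subunit of mitochondrial RNase P, had levels of 8.98, 8.84 and 8.85 in HFM at 12 hours and 6.55, 6.58 and 6.55 at 24 hours, a fall of 2.33, while it rose by 0.85 in GM. ZNF804A fell by 2.30 in HFM, to levels from 3.04 to 3.45, and rose by 1.12 in GM. FILIP1L fell by 1.78, and by 1.08 as the mean of its probe sets.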

How the results depend on the processing

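Counts of called genes stayed within 1.5 times of those reported under every alternative run, except for testing every probe set on its own (15541 in HFM, 16399 in GM and 12989 for the difference) and for requiring 2-fold (1004, 561 and 1045). Leaving out each array gave 7618 to 8458 calls in HFM, 8415 to 8724 in GM and 6204 to 8159 for the difference. Deviations of same-numbered HFM arrays correlated at 0.21, 0.15 and 0.05, and those of differently numbered arrays at -0.18 to 0.14. With so few arrays these values cannot decide whether the replicate numbers pair them. The replicate block gave 8367, 9247 and 7073 calls, and HFM 12-hour replicate 3 correlated best with 24-hour replicate 2 (0.14). The term for the hybridisation control class rests on HFM 12-hour replicate 1 and gave 8458, 7389 and 8292 calls, with 3903 rises and 3486 falls in GM. Of 2215 values of 142 named genes, 2166 kept direction and call, 31 lost the call and 18 changed sign, and 36 genes kept both but moved over 1.5 times as the mean of their probe sets. Sign changes, whose cause was not tested, were of small or probe set dependent values. As the mean of probe sets, COL1A1 stood at -0.28, DUSP4 at -0.27, ENG at 0.026, MCL1 at -0.056 and RPL18 at 0.35. Without the cross-hybridising types, DUSP4 stood at -0.61 and MALAT1 at -0.053. After centring, ATF4 stood at 0.022, HMOX1 at 0.21, RPL18 at 0.0076, RPL8 at 0.055 and RPS9 at 0.050, and after quantile normalisation HMOX1 at 0.038. With the control class term, COL1A1 stood at -0.13 and HMOX1 at 0.082, and over the left-out arrays COL1A1 ranged from -0.13 to 0.21 and HMOX1 from -0.063 to 0.082. The median of all genes moved to 0.10 after centring and 0.01 after quantile normalisation, so falls of small size depend on the scaling.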
